A study of Mus musculus with 35 samples.

Results

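These regions are the narrower peaks of the histone mark H3K4me3 in mouse cranial neural crest that also meet a binding site of UTX. A region was taken when it was a wild-type H3K4me3 peak on chromosomes 1 to 19, narrower than 4000 bp, that shared at least 1 bp with a UTX peak and with an H3K4me3 peak of female knockout crest, and with no wild-type H3K27me3 peak. This gave 7981 members, 15.7% of the 50795 wild-type H3K4me3 peaks of those chromosomes. The members were thus chosen by measured values, the peak calls of both genotypes and of UTX, and no presence of H3K4me3, UTX or H3K27me3 that the rule fixed is given as a result. Coordinates are 1-based on mm9, and the peaks were not assigned to genes here.

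Crest of 3 genotypes was compared, all at E12.5 (the embryonic day), sorted from dissected embryos for a Tomato reporter that Wnt1-Cre switches on and for exclusion of the dead-cell dye DAPI. The female knockout, labelled fko, carried floxed Utx on both X chromosomes (Utx fl/fl with Wnt1-Cre). The male knockout, labelled mko, carried floxed Utx on its single X (Utx fl/y with Wnt1-Cre). The wild type, labelled wt, was male and carried Wnt1-Cre alone, so Cre was shared by every group, and in fko against wt the genotype and the sex cannot be told apart. Wnt1-Cre acts in neural crest and also in part of the dorsal neural tube, so the deletion is limited to those cells and their descendants. H3K4me3 was measured in 3 fko, 1 mko and 3 wt libraries. The UTX peaks came from a single library of O9-1 cells, a crest line kept in culture since its isolation at E8.5, which was fixed with formaldehyde, whereas the histone ChIP used unfixed chromatin. A UTX peak thus marks a site bound in that line, and UTX was not measured in the sorted crest.

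H3K4me3, the trimethylated lysine 4 of histone H3, marks nucleosomes around the start sites of active and poised genes. UTX, the product of the X-linked gene Kdm6a, removes methyl groups from lysine 27 of the same histone and is a subunit of the complexes built on the methyltransferases MLL3 and MLL4, which methylate lysine 4 mainly at enhancers. H3K27me3 is laid down by Polycomb repressive complex 2 and marks genes that Polycomb keeps silent. Males keep UTY, the Y-linked relative of UTX, which females lack.

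Counts in listed peaks ran between 22645778 and 40129294 per H3K4me3 library and between 15412991 and 19088922 per H3K27me3 library, and the UTX library held 2995484 counts in its peaks. The labels do not say whether the numbered libraries came from separate embryos, so errors and p-values here measure only the spread between these libraries. That spread was small, with a biological coefficient of variation of 0.0253 over the fko and wt libraries. In the 6 RNA libraries, all 10 markers of cranial crest and its mesenchyme were at 10 CPM (counts scaled to libraries of equal size) or more in every library. They summed to between 1543 and 1698 CPM in fko, 1614 and 1738 in mko, and 1488 and 1540 in wt, so every knockout sum was above the wt sums. Among the genes, Twist1 alone was higher in every knockout library than in any wt library. It had 238 and 221 CPM in fko, 267 and 261 in mko, and 206 and 205 in wt. The other markers of this list overlapped between knockouts and wt. Of the 5 markers of crest glia and neurons, whose sums overlapped, Sox10 alone was higher in every knockout library than in any wt library. It had 72.4 and 76.5 CPM in fko, 71.1 and 73.3 in mko, and 62.6 and 69.6 in wt. Markers of other cells also differed by genotype in 2 lists. The 4 brain markers, Sox2, Neurog2, Otx2 and Olig2, none of them at 0, summed to between 42.3 and 52.2 CPM in fko, 49.7 and 54.3 in mko, and 115 and 138 in wt, with each gene lower in every knockout library than in any wt library. The 3 muscle markers summed to between 0.454 and 0.613 CPM in fko, 1.07 and 1.65 in mko, and 2.30 and 2.34 in wt, although Myog alone was highest in 1 mko library. Of these 3 genes, 2 were under 1 CPM in every library, so the muscle sum lies near the floor. In such bulk samples, fewer cells of a type and less RNA per cell cannot be told apart. Sums of the blood, endothelial and epithelial markers overlapped between knockouts and wt. Kdm6a itself had 49.7 and 62.7 CPM in fko, 39.7 and 30.8 in mko, and 47.3 and 55.5 in wt. Counts over a whole gene do not check a deletion of part of it. Uty had 0 and 0.649 CPM in fko, 38.5 and 33.3 in mko, and 34.6 and 42.4 in wt, so it was at or near 0 in the female libraries alone.

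The rule narrowed the list in steps. Of 47966 wild-type peaks under 4000 bp, 11855 met a UTX peak, 10665 of those also met an fko H3K4me3 peak, and 2684 of those were then dropped for a wt H3K27me3 peak. On the UTX side, 7669 of the 21656 UTX peaks of the same chromosomes touched a member, or 35.4%. The members were set against the 13981 peaks that met every other condition but no UTX peak, called peaks without UTX below, and against the 1481 UTX-bound peaks of 4000 bp or more. The width limit did not fall at a break. The widest members were chr14:21204815-21208809 at 3995 bp and chr6:125113468-125117460 at 3993 bp, and the first peaks beyond the limit were chr5:30479927-30483926 and chr9:75254832-75258831, both at 4000 bp. Their mean H3K4me3 levels were 12.2 and 11.8 CPM per kb inside the limit and 13.8 and 10.1 outside it.

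The members fell into 2 classes of H3K4me3 level. Level here is CPM per kb of peak, averaged over the 7 libraries. The members' median was 10.9, with the lowest at 1.10 and the highest at 45.7. A dip between the classes lay near 5 CPM per kb, a value chosen after the levels were seen. Above it were 6132 strong members, 76.8% of the total, with a median level of 12.02 and a median width of 2421 bp. Below it were 1849 weak members, with a median level of 2.21 and a median width of 942 bp. Only 296 members lay between 4 and 6, so few change class if the line moves. Peaks without UTX had a median level of 2.36 and a median width of 717 bp, and 14.7% of them reached 5. Of the UTX-bound peaks of 4000 bp or more, 96.4% did.

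**Figure D1:**
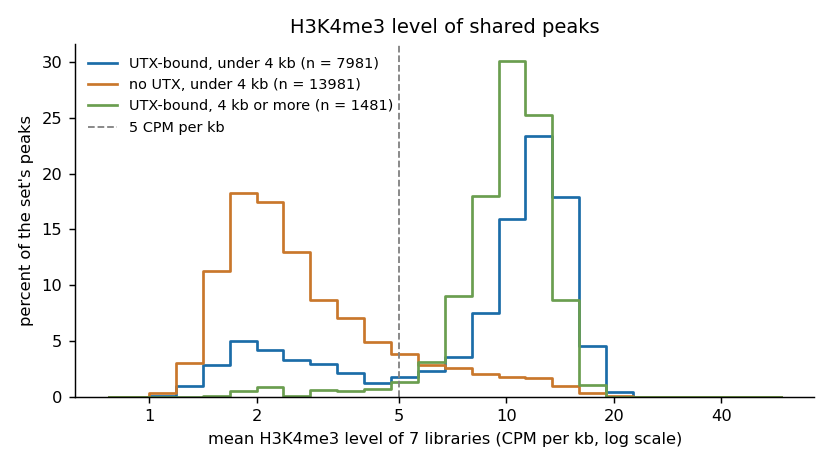
Mean H3K4me3 level of each shared peak over 7 libraries (x axis, CPM per kb, log scale) against the percent of each set's peaks per bin (y axis), for members, peaks without UTX and UTX-bound peaks of 4000 bp or more; the dashed line marks 5. Members show a main hump with a strong-member median of 12.02 and a smaller one with a weak-member median of 2.21, where most peaks without UTX lie.

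The members with the highest wild-type level stood far above the strong class as a whole. The top one, chr1:90172075-90174863, had 148, 141 and 142 CPM in fko, 145 in mko, and 102, 108 and 107 in wt. All 4 knockout libraries were above all wt libraries there. Next came chr4:62162012-62163882, with 53.4, 51.2 and 52.7 CPM in fko, 50.9 in mko, and 59.7, 59.5 and 55.9 in wt, where every knockout library was below every wt library, though both fold changes turned sign when the libraries were scaled on peaks without UTX. chr8:20019730-20020691 and chr8:19784399-19785413, which lie within 1 stretch of chromosome 8, had mean levels of 25.4 and 21.3 CPM per kb, and chr7:85926881-85929081 had 22.5. At the other end, chr17:56171605-56172798 held the lowest mean level of all members, at 1.10, with 1.45, 1.28 and 1.17 CPM in fko, 1.02 in mko, and 1.19, 1.23 and 1.82 in wt. The fko and wt libraries overlapped at this member. chr15:5069730-5070462 and chr5:143664054-143664638 had wt levels almost as low as its 1.18, at 1.25 and 1.23. Each of these 3 faint members met a far wider UTX peak, of 6580, 6527 and 18727 bp in that order.

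Within the peaks under 4000 bp that met the other conditions, the share with a UTX peak depended on H3K4me3 level. It was 13.6% below a level of 1.5, 13.2% at 1.5 to 2, 12.7% at 2 to 3 and 14.9% at 3 to 5, and so did not climb over that range. It was 33.8% at 5 to 8, 76.8% at 8 to 11, 89.2% at 11 to 14 and 90.3% at 14 or more. Width went with the same share. Strong peaks met UTX in 14.5% of cases under 1000 bp, 65.6% at 1000 to 2000 bp, 94.3% at 2000 to 3000 bp and 96.8% at 3000 to 4000 bp. Weak peaks met it in 10.1%, 19.7%, 32.4% and 35.9% over the same widths. A strong peak of 2000 to 3000 bp thus met UTX more often than a weak peak of that width, with exact 95% intervals of 93.4 to 95.1% and 28.5 to 36.5% that cover counting error only. UTX and H3K4me3 were mapped in different cells, and wider peaks were also the stronger ones, so these shares are descriptions.

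**Figure D2:**
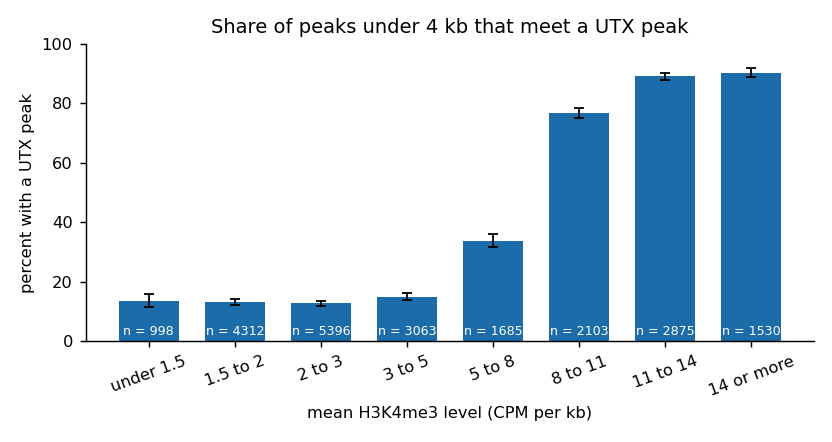
Percent of shared peaks under 4000 bp that met a UTX peak (y axis) by mean H3K4me3 level in CPM per kb (x axis); bars start at 0, error bars are exact 95% binomial intervals, and n is the number of peaks. The share stays between 12.7% and 14.9% below a level of 5 and reaches 90.3% at 14 or more.

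Where UTX sat within the member also differed between the classes. Over all members, the centre of the UTX peak lay a median of -2.5 bp from the centre of the H3K4me3 peak, with quartiles at -338 and 330.5 bp, so it showed no side along the chromosome. It lay within 250 bp of the centre in 42.3% of strong members and 29.2% of weak ones. In 63.0% of strong members the UTX peak lay wholly inside the H3K4me3 peak, and its median width was 0.641 times the member's. Of the weak members, 52.4% were wholly covered by their UTX peak, whose median width was 2.43 times the member's. The strong class was thus mostly a wide H3K4me3 peak around a narrower UTX peak, and the weak class a narrow H3K4me3 peak within a wider UTX peak.

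**Figure D3:**
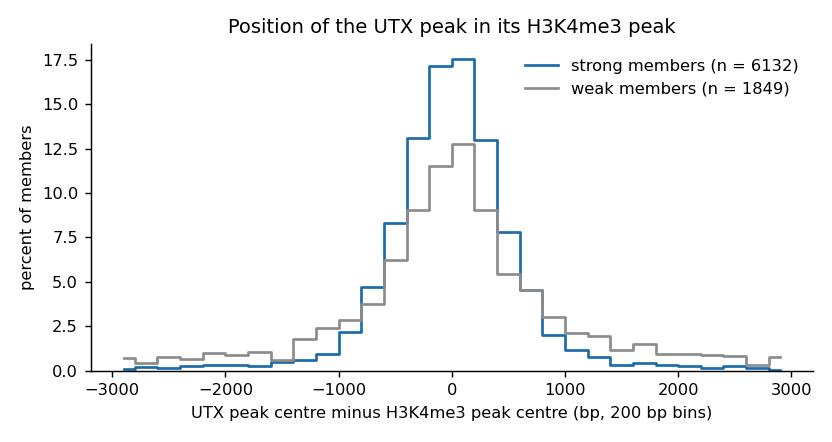
Distance from the centre of the H3K4me3 peak to the centre of its UTX peak (x axis, 200 bp bins) against the percent of strong and of weak members (y axis). Both classes centre near 0; 42.3% of strong and 29.2% of weak members have the UTX centre within 250 bp, and the weak class has the heavier tails.

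Some members shared a UTX peak and are not separate UTX sites. Of the 7669 UTX peaks that touched a member, 7399 touched 1 and 234 touched 2. The one that touched the most, chr10:79599568-79643085, was 43518 bp wide and met 6 members, whose levels ran between 4.62 and 12.99 CPM per kb. The widest, chr10:119850631-119916140 at 65510 bp, met 5 members, all 5 of them weak. In the other direction, 4 members held 2 UTX peaks each, among them chr2:29820083-29823677 with 37.8, 36.3 and 39.4 CPM in fko, 41.5 in mko, and 33.9, 31.2 and 32.6 in wt. The other 3 were chr14:55221548-55225331, chr16:37729449-37733240 and chr2:156895400-156897767, at mean levels of 6.05, 1.84 and 1.23 CPM per kb.

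UTX strength was read as UTX counts per kb of the UTX peak, because the fold enrichments deposited with the UTX and H3K4me3 lists did not follow the reads of their own regions. Across the UTX list the rank correlation of fold and counts per kb was 0.0886, while fold of 1 entry and the next in the list correlated at 0.485. In the fko and wt H3K4me3 lists fold and counts per kb correlated at 0.0382 and 0.0362. These are descriptions across peaks, and the cause was not tested. By UTX counts per kb, the lowest quartile of members held 48.5% strong members, the next ones 77.4% and 88.0%, and the highest 93.4%. The members' median H3K4me3 level over those quartiles was 4.57, 10.7, 11.7 and 12.1 CPM per kb. Among strong members alone the median levels were 11.25, 11.8, 12.2 and 12.3. UTX counts thus separated strong from weak members more than they ordered the strong ones, with rank correlations of 0.36 over all 7981 members and 0.114 over the 6132 strong ones. The 5 members with the highest deposited UTX fold, between 10.0 and 10.7, lay in 2 places. chr19:11844412-11846121, chr19:11985647-11988537 and chr19:12039182-12042297 formed one, and chr2:156895400-156897767 and chr2:157028248-157031466 the other. Their UTX peaks held 67, 172, 104, 23 and 139 counts in that order. The faintest of them, chr2:156895400-156897767, was a weak member with 2.63, 2.21 and 2.51 CPM of H3K4me3 in fko, 2.07 in mko, and 3.68, 3.94 and 3.37 in wt. Because of the limit above, the order of these folds ranks no single region.

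Strong and weak members lay further apart in both knockouts than in wt. The median level of strong members was 12.997, 12.478 and 12.324 CPM per kb in the fko libraries, 12.841 in the mko library, and 11.471, 10.943 and 10.989 in the wt libraries. For weak members it was 1.84, 2.01 and 2.02 in fko, 1.89 in mko, and 2.55, 2.75 and 2.72 in wt. No knockout library overlapped the wt libraries in either class. Strong over weak members, as counts per kb within 1 library, gave log2 ratios of 2.59, 2.44 and 2.41 in fko, 2.54 in mko, and 2.04, 1.89 and 1.89 in wt. No scaling between libraries can change this value. Input was not subtracted, so differences between libraries in signal over background enter the ratio, and their part was not tested. Members are wild-type peak calls within wild-type bounds, which favours higher wt values at peaks near the calling limit. The median log2 fold change of all wild-type peaks was -0.30 in fko and -0.26 in mko against wt. Over all tested peaks it was -0.08 in both. The part of this choice in the lower weak class was not tested. The groups averaged 2.48 ± 0.0937 in fko and 1.94 ± 0.085 in wt (SD, n = 3 each). Replicate 1 had the highest ratio in fko and in wt, and the only mko library is also number 1. Set beside wt1 alone, at 2.04, the mko ratio of 2.54 was still higher. Of a pair of libraries with similar counts in peaks of chromosomes 1 to 19, fko3, with 34076489, had 2.41, and wt3, with 34720078, had 1.89. Counts in peaks are not the depth of sequencing, and the part of depth was not tested. The brain marker sum, the muscle sum near the floor, the crest sum with Twist1 alone of its genes, and Sox10 moved with the same groups. Their part in this difference was not tested.

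The lower level of weak peaks in the knockouts was also present in peaks without UTX, where the median level was 2.00, 2.14 and 2.18 in fko, 2.07 in mko, and 2.64, 2.90 and 2.82 in wt. Members below a level of 1.5 had a median log2 fold change of -0.60 in fko against wt and -0.74 in mko against wt, and peaks without UTX at that level had -0.57 and -0.77. At levels of 2 to 3 the values were -0.44 and -0.47 in members and -0.44 and -0.46 in peaks without UTX. Above 5 the members lay higher than peaks without UTX. At 8 to 11 their medians were 0.15 in fko and 0.19 in mko, against 0.06 and 0.07 in the 488 peaks without UTX. At 11 to 14 they were 0.16 and 0.20, against 0.09 and 0.12 in 310. Both comparisons share the wt libraries. Width differed too, so the bins were also read at 1 width: for peaks of 1000 to 2000 bp with a level of 8 to 11, the 343 members had 0.12 in both comparisons and the 240 peaks without UTX had 0.04 in both. These differences between sets are descriptions, since members of a set are not replicates. Both sets are wild-type peak calls, so the limit given above on that choice holds for both.

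**Figure D4:**
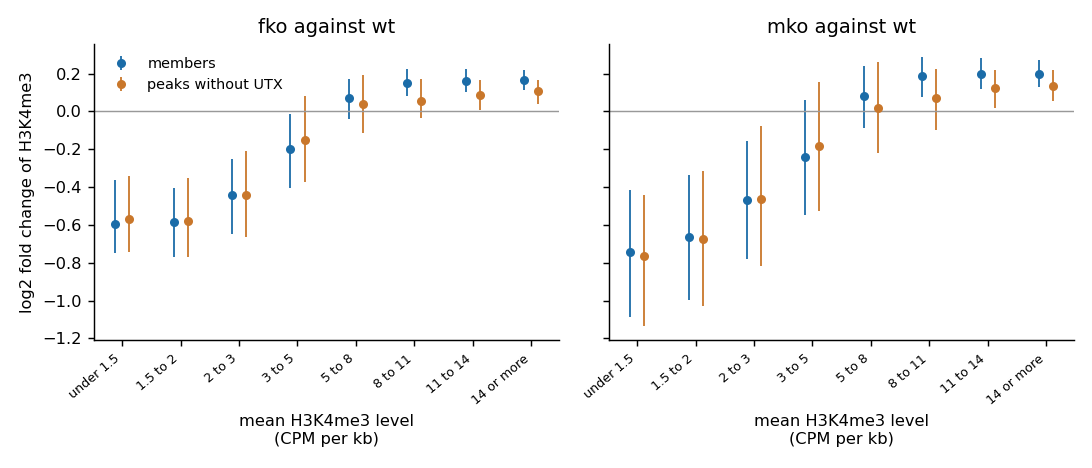
Median log2 fold change of H3K4me3 (y axis, with bars for the lower and upper quartile over peaks) by mean level in CPM per kb (x axis), for members and for peaks without UTX, in fko against wt (left) and mko against wt (right). Values lie below 0 under a level of 5 in both sets, and members reach 0.17 in fko and 0.20 in mko at the highest levels.

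A change in log2 depends on the scaling between libraries, which was set by TMM factors over all peaks. Under these, the median log2 fold change of all tested peaks was -0.08 in both comparisons, that of members 0.13 in fko and 0.15 in mko, and that of UTX-bound peaks of 4000 bp or more 0.20 and 0.24. With column totals the median of all peaks became -0.20 in fko and -0.24 in mko, and with factors from peaks without UTX it became 0.23 and 0.28. These scalings shift all peaks of a library by nearly the same amount, so the gap between members and all peaks could hardly change. Members lay higher by 0.21 in fko and 0.24 in mko under each, which is no check of the scaling. Strong members had a median of 0.16 in fko and 0.19 in mko, weak members -0.45 and -0.48. Across the scalings, edgeR and DESeq2 alike, the strong median stayed above 0, the lowest being 0.04 in fko and 0.03 in mko with column totals. The weak median stayed below 0, the nearest being -0.13 in fko and -0.11 in mko with factors from peaks without UTX.

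As the share of all H3K4me3 counts in wild-type peaks, the members held 37.6, 37.1 and 37.1% in fko, 37.0% in mko, and 36.3, 35.6 and 35.6% in wt. Every member was required to have an fko peak and the other wild-type peaks were not, so a higher share in fko was partly fixed by the rule. All listed peaks as the denominator count regions called in both genotypes 2 times, and the members then held 18.7% in fko and 18.2% in wt. On that smaller base the fko minus wt difference was 0.438 percentage points, in place of 1.40 on shares of 37.3% and 35.9%. Strong members held 97.7, 97.5 and 97.4% of the members' counts in fko, 97.7% in mko, and 96.7, 96.4 and 96.4% in wt. Against the peaks without UTX in the same library, members had log2 ratios of counts per kb of 1.70, 1.63 and 1.60 in fko, 1.67 in mko, and 1.40, 1.29 and 1.31 in wt. The knockout libraries lay above the wt libraries in each of these measures.

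All 7981 members passed the filter on low counts. In fko against wt, a contrast that the rule used through the peak calls, edgeR put 4259 members higher and 1246 lower at an adjusted p below 0.05. The background over all 88217 tested peaks was 24.8% higher, 32.5% lower and 57.4% in either direction. With column totals in place of TMM factors the split was 1748 higher and 1774 lower, and with factors from peaks without UTX it was 6219 higher and 490 lower. Of the strong members 4214 were higher and 103 lower, and of the weak members 45 were higher and 1143 lower. Most of these differences were small. A change of 2-fold or more among the members called was found in 73, of which 6 were higher and 67 lower, against a background of 9.13% of all peaks. Of the 67, 65 were weak members.

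In mko against wt, where 1 library stands for the genotype and is assumed to vary like the others, 3646 members were called higher and 1039 lower. The background was 23.3% higher, 26% lower and 49.3% in either direction over 89143 peaks. Column totals gave 1418 higher and 1735 lower, and factors from peaks without UTX 6106 and 439. Strong members made up 3596 of the higher calls and 135 of the lower ones. Changes of 2-fold or more numbered 315, with 8 higher and 307 lower, against a background of 15.2%, and 300 of the 307 were weak members. The direct test of fko against mko called 299 members higher and 469 lower in fko, against a background of 4.66%, 7.25% and 11.9% in either direction. This split turned with column totals, at 611 higher and 461 lower. Without fko replicate 2 the test called 452 members in all, so this count leans on 1 library. DESeq2 called 163. Of the edgeR calls, 25 were 2-fold or more higher in fko and 7 lower, against a background of 1.9%.

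The 5 members with the smallest p among those higher in fko against wt had changes far above the strong members' median. chr14:69954419-69956457 had 36.95, 35.4 and 37.3 CPM in fko, 26.9 in mko, and 17.7, 15.7 and 17.7 in wt. Its log2 fold change was 1.08 (SE 0.0511) in fko and 0.65 (SE 0.0758) in mko, with the mko library between the other groups. A weak member further along the chromosome, chr14:70061079-70061853, was also among the 6 that were 2-fold or more higher in fko, at 1.18, and had 0.71 in mko. It was picked out after its value was seen. chr9:120036037-120039116 had 34.2, 31.5 and 33.3 CPM in fko, 31.1 in mko, and 16.45, 15.7 and 14.2 in wt. The 4 knockout libraries lay close together there, at a log2 fold change of 1.09 (SE 0.0533) in fko and 1.02 (SE 0.0746) in mko. chr8:86116257-86119000 had 46.6, 43.0 and 44.1 CPM in fko, 43.4 in mko, and 25.1, 24.2 and 23.7 in wt. The narrow member chr17:33083834-33084634, 801 bp wide, had 9.69, 8.88 and 10.2 CPM in fko, 8.38 in mko, and 2.79, 2.88 and 3.13 in wt. Its log2 fold change of 1.69 (SE 0.0987) in fko was the highest of all members. chr2:155061354-155064460 had 57.6, 53.2 and 54.9 CPM in fko, 52.1 in mko, and 32.7, 34.3 and 33.3 in wt. In none of these 5 did a knockout library overlap a wt library, an order that the choice by smallest p favours.

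Among the members lower in fko, 4 of the 5 with the smallest p were lower in mko as well. chr19:20463511-20465791, a weak member within a UTX peak of 10896 bp, had 5.48, 6.17 and 5.47 CPM in fko, 2.93 in mko, and 15.0, 13.9 and 14.3 in wt. Its log2 fold change was -1.35 (SE 0.0754) in fko and -2.29 (SE 0.13) in mko, the deepest value of any member in mko. chr18:31792725-31796499 had 45.4, 44.0 and 42.4 CPM in fko, 46.9 in mko, and 71.2, 67.8 and 67.4 in wt. Both knockouts lay at a similar level there, below every wt library. chr7:53174475-53177106 had 13.7, 13.7 and 12.2 CPM in fko, 7.99 in mko, and 24.1, 25.3 and 23.4 in wt. Its log2 fold change was -0.88 in fko and -1.60 in mko. chr4:129472053-129473800 had 7.12, 7.69 and 7.56 CPM in fko, 8.99 in mko, and 16.6, 14.8 and 14.7 in wt. The member chr6:135312397-135316030, named for mko against wt, had 23.3, 21.3 and 22.1 in fko, 16.3 in mko, and 33.6, 36.4 and 35.0 in wt. At these 5 members no knockout library overlapped a wt library, and here too the choice by smallest p favours that order.

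The remaining one went against this pattern. chr17:6474771-6476632, a strong member of 1862 bp, had 18.98, 16.22 and 18.23 CPM in fko, 36.5 in mko, and 40.3, 36.0 and 36.3 in wt. The mko library lay among the wt libraries, its difference from them being -0.04 on the log2 scale (SE 0.0665, edgeR adjusted p = 0.618). That mko difference was -0.20 with column totals (edgeR adjusted p = 0.00156) and 0.32 with factors from peaks without UTX (edgeR adjusted p = 0.00789), so whether mko differs from wt here depends on the scaling. Under all 3 scalings fko was lower than mko, by 1.03 with TMM factors (SE 0.07, edgeR adjusted p = 1.17e-44). fko was the only female group, so its sex and its genotype cannot be told apart here. The mirror case was chr16:16558069-16560741, with 12.81, 11.78 and 12.1 CPM in fko, 30.7 in mko, and 12.47, 10.79 and 11.31 in wt. Here mko alone stood out, at 1.41 against wt (SE 0.0771, edgeR adjusted p = 6.09e-69), and fko was lower than mko by 1.33 (SE 0.0751, edgeR adjusted p = 6.04e-64). This value rests on the single mko library.

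**Figure D5:**
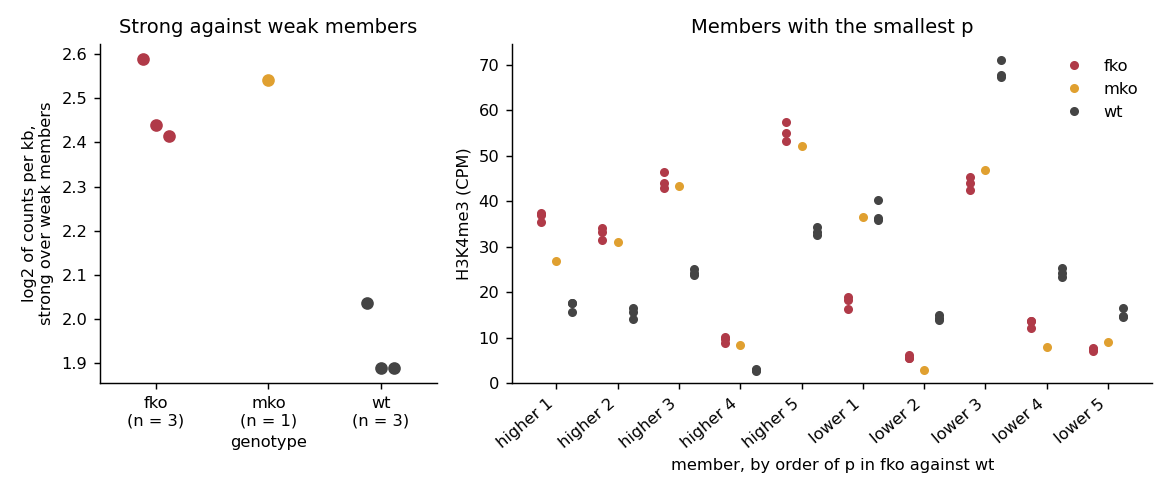
Left, log2 of counts per kb in strong over weak members for each library (y axis) by genotype (x axis), with no error bars because each point is a library; all 4 knockout points, at 2.41 or more, lie above the wt points, at 2.04 or less. Right, H3K4me3 in CPM (y axis) of each library for the 5 members of smallest p in each direction of fko against wt (x axis); in lower 1 the mko point lies with wt.

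By the rule no member met a wt H3K27me3 peak, so the overlap with fko H3K27me3 peaks is a description. An fko H3K27me3 peak met 148 members, 1.85% of them, against 4.72% of peaks without UTX and 2.70% of UTX-bound peaks of 4000 bp or more. Exact 95% intervals were 1.57 to 2.17% for members and 4.38 to 5.09% for peaks without UTX, for counting error only. The gap lay mostly in faint fko peaks. With fko peaks of −log10 q of at least 5 alone, the shares were 0.150% of members and 0.207% of peaks without UTX. Their intervals overlapped, at 0.078 to 0.263% and 0.139 to 0.298%. Within strong peaks the shares were 1.35% of members and 4.71% of peaks without UTX, and within weak peaks 3.52% and 4.72%. The 149 fko peaks concerned were small and faint, with a median width of 978 bp against 2119 bp for all fko H3K27me3 peaks. Their median H3K27me3 was 1.70, 1.79 and 1.78 CPM in fko, 1.54 in mko, and 1.32, 1.29 and 1.33 in wt. Of the 149, 131 were above the wt mean in fko and 99 in mko, and of all 16701 fko H3K27me3 peaks 8900 and 7853 were. Taking peaks called in fko at places with none called in wt favours values above wt in fko. A low wt mean also raises the count in mko, so nothing is read from these counts.

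An fko H3K27me3 peak covered 19 members whole, and the 5 widest of these were weak. At chr11:117836780-117837762 H3K27me3 was 12.99, 13.8 and 14.5 CPM in fko, 10.6 in mko, and 6.96, 6.18 and 7.43 in wt. At chr8:123028161-123029752 it was 5.37, 5.82 and 4.51 in fko, 3.94 in mko, and 2.94, 3.71 and 2.79 in wt. At chr17:14302066-14303159 it was 3.12, 3.86 and 3.30 in fko, 2.74 in mko, and 1.86, 2.12 and 1.86 in wt. At these 3 no fko library overlapped a wt library, and the choice of regions by fko and wt peak calls favours that order. At chr11:81952781-81953842 and chr3:66177589-66179400 the libraries overlapped: the first had 12.11, 12.54 and 12.77 in fko, 12.3 in mko, and 13.3, 11.1 and 12.8 in wt, and the second 3.34, 3.25 and 3.37 in fko, 2.91 in mko, and 2.70, 3.30 and 2.92 in wt. H3K4me3 at chr11:81952781-81953842 was 1.21, 1.16 and 1.79 CPM in fko, 1.49 in mko, and 2.65, 2.62 and 2.75 in wt, with every knockout library below every wt library. At the other 4 the fko and wt libraries overlapped in H3K4me3, as at chr11:117836780-117837762 with 1.61, 1.43 and 1.17 CPM in fko, 2.02 in mko, and 1.56, 1.86 and 2.42 in wt.

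The width of the peak called in each genotype followed the level class. Of the 6118 strong members that met exactly 1 fko peak, 75.7% had a wider peak in fko, with median widths of 2635 bp in fko and 2419 bp in wt. Of 1807 such weak members 25.6% did, with median widths of 707 bp in fko and 927 bp in wt. The lists were called on pooled libraries of each genotype, so these widths have no replicate error. The rule limited the width in wt and not in fko, which favours a wider fko peak among the widest members. Members were taken from the wt calls, which favours a wider wt peak among the faint ones.

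Members were unevenly spread over the chromosomes. They made up 20.1% of wild-type peaks on chromosome 11, 19.03% on 17 and 18.7% on 7, but 10.8% on chromosome 18, 12.01% on 13 and 12.7% on 12. Their median level ran between 9.90 CPM per kb on chromosome 10 and 11.7 on chromosome 2. With TMM factors, the median log2 fold change of the members was between 0.08 and 0.16 in fko and between 0.10 and 0.17 in mko over the chromosomes, and over all members it was 0.0114 in fko and -0.0042 in mko with column totals. The median gap between neighbouring members was 66834 bp, and 99 neighbouring pairs lay at most 1000 bp apart. Of those pairs, 38 were both strong, 28 both weak and 33 of 1 strong and 1 weak member. The tightest run of 5 members spanned 13619 bp at chr1:163938043-163951661 and held weak members only, at mean levels between 1.62 and 2.77. The first of the run, chr1:163938043-163940863, had 6.95, 7.75 and 7.35 CPM in fko, 6.06 in mko, and 8.92, 9.14 and 8.35 in wt. The fourth, chr1:163946784-163949029, had 5.42, 5.66 and 6.42 in fko, 5.20 in mko, and 6.57, 7.49 and 6.85 in wt. Every knockout library was below every wt library at these 2, though the fko fold change turned sign when the libraries were scaled on peaks without UTX. The last, chr1:163950121-163951661, had 3.22, 3.31 and 2.36 in fko, 2.66 in mko, and 3.02, 2.75 and 3.18 in wt, with the groups overlapping. The 5 members met only 2 UTX peaks, of 8968 and 7800 bp.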

How the data were processed

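The authors deposited raw counts of reads in MACS2 broad peaks for 7 H3K4me3 and 7 H3K27me3 libraries, and in genes for 6 RNA libraries. A deposited UTX list holds counts, a fold ratio over background and −log10 q per peak, and the deposited histone peak lists hold −log10 q and, for H3K4me3, a fold ratio, per the file headers. The H3K27me3 fold columns were not used. Per the submitters' processing notes the genome was mm9 and the tools included Bowtie2, TopHat2, HTSeq, bedtools and MACS2, and versions, cut-offs and the control used are not given in the sources used here. Lists were called on pooled libraries, per the labels, and a region called in both genotypes is listed 2 times in the H3K4me3 table.

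All peaks of chromosomes 1 to 19, 88217 of them after filterByExpr in fko against wt, entered the quasi-likelihood test of edgeR 4.0.16 in R 4.3.3, with TMM factors and Benjamini-Hochberg adjustment at 0.05. The fko contrast used 6 libraries, the mko contrasts all 7. DESeq2 1.42.0 was an alternative. The fit was tested on simulated data in which few peaks changed, as many up as down. Such data do not test the scaling where many peaks change, as they did here. Overlaps of at least 1 bp came from Python 3.11.15 code, checked on known intervals. CPM used effective library sizes. Intervals are exact Clopper-Pearson. Planned permutation tests of scores over the members are not given, since members were chosen with results known. Named regions followed a fixed rule: the smallest p per direction (5 for fko, 3 for mko), the highest UTX fold, the highest and lowest wt level, the edge of the width limit, the most UTX peaks, the largest cover by fko H3K27me3 and the tightest run. The members, lists and rule were chosen with earlier results of these data known. Same-numbered fko and wt libraries deviated together by correlations of 0.105, 0.0165 and 0.0165, and the main fits did not pair libraries by number. Replicate 1 nevertheless stood highest in the strong over weak ratio of both fko and wt. With the number as a block, the members' median log2 fold change in mko was 0.11, in place of 0.15.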

Additional observations from a re-analysis of the deposited data

Results flagged for a closer look

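The 2 knockouts differed at some members, by the direct edgeR test of fko against mko over all peaks. The test called 768 members, and the mko side rests on 1 library. That was 3.75% of members higher and 5.88% lower in fko, below the shares of all tested peaks, at 4.66% and 7.25%, and DESeq2 called 163. Among the named regions, fko was lower than mko at chr16:16558069-16560741 (log2 -1.33), chr17:6474771-6476632 (-1.03), chr8:19784399-19785413 (-0.45) and chr8:20019730-20020691 (-0.27). At chr8:19784399-19785413 the values were 20.9, 18.2 and 17.9 CPM in fko, 26.1 in mko, and 23.8, 22.2 and 22.5 in wt. At chr8:20019730-20020691 they were 26.6, 23.9 and 22.7 in fko, 29.5 in mko, and 24.1, 23.0 and 21.2 in wt. fko was higher than mko at chr14:69954419-69956457 (0.44), chr19:20463511-20465791 (0.96), chr7:53174475-53177106 (0.73) and chr6:135312397-135316030 (0.45). At the last 3 both knockouts were below wt and mko was the lower one.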

How the results depend on the processing

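Column totals in place of TMM factors gave 3522 called members in fko against wt in place of 5505, and medians of 0.0114 in fko and -0.0042 in mko against wt, so the mko median turned sign. Factors from peaks without UTX gave medians of 0.44 and 0.52, and DESeq2 0.19 and 0.22. In fko against mko, 317 members were called with factors from peaks without UTX and 163 with DESeq2, in place of 768. The fko minus wt difference in the members' share of counts was 1.40 percentage points, and 0.438 with all listed peaks as the denominator. The shares themselves were 37.3% and 35.9% in the first case and 18.7% and 18.2% in the second. Where an fko H3K27me3 peak had to cover at least 50% of the region, it met 0.526% of members and 2.42% of peaks without UTX. For fko peaks with −log10 q of at least 5 the shares were 0.15% and 0.207%. UTX fold and H3K4me3 level correlated at -0.0132, and UTX counts per kb and level at 0.347. Taking only UTX peaks with −log10 q of at least 5 left 1168 members, by a column with the limit given above for fold.

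Leaving out each replicate gave 4420 to 5628 called members in fko against wt, 3937 to 4936 in mko against wt and 452 to 1057 in fko against mko. The medians ran between 0.11 and 0.15 in fko and 0.13 and 0.17 in mko, the share difference between 1.24 and 1.64 points, and the fko minus wt difference in the log2 ratio of members to peaks without UTX between 0.28 and 0.34. With the replicate number as a block, 5812 members were called in fko against wt, 3834 in mko and 902 in fko against mko, 533 of them higher, and the fko minus wt difference in that log2 ratio was 0.31.

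Of 1144 values of named regions under the alternatives, 1029 kept their direction and their side of the threshold, 58 were no longer called and 20 became called. The sign turned in 37, of which 28 were called neither before nor after and 9 were called in at least 1 of the settings. Factors from peaks without UTX turned the sign at chr1:163938043-163940863 (0.0498), chr1:163946784-163949029 (0.0547), chr1:163950121-163951661 (0.29), chr3:66177589-66179400 (0.00933), chr4:62162012-62163882 (0.15) and chr8:19784399-19785413 (0.0424) in fko against wt, and at chr4:62162012-62163882 (0.17) and chr17:6474771-6476632 (0.32) in mko. Column totals turned chr14:21204815-21208809 in mko (-0.15), and called chr17:6474771-6476632 lower in mko (-0.20, edgeR adjusted p = 0.00156). The cause was not tested. Depth limits the weak members: the faintest hold about 1 CPM, and their errors are the widest.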
